A study of Mus musculus with 20 samples.

Results

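The 40 genes described here encode the 20 cytosolic aminoacyl-tRNA synthetases and a set of enzymes, transcription factors and effectors of the amino acid stress response. They are a list of names that uses no measured value as a criterion, although it was drawn up with earlier results of these data known. All 40 were found among the 23992 gene symbols of the files, each represented by its most heavily read transcript, and all 40 passed the filter on low counts. Mouse T cells of 2 types from spleen and lymph node were profiled by RNA-seq. Regulatory T cells (Tregs) came from B6-Foxp3EGFP mice, in which a green fluorescent protein is co-expressed with the Treg factor Foxp3, by CD4+ isolation and sorting for GFP. CD8+ T cells came from C57BL/6J mice with an isolation kit, whereas the strain label of every library reads C57BL/6N. Each cell type was left unstimulated (0 hr) or given 200 nM IL-2 or 200 nM IL-2-REH for 90 min or 4 hr, with 3 libraries per Treg group and 1 library per CD8+ group. IL-2-REH is human IL-2 with substitutions that weaken binding of the common gamma chain, a partial agonist of the IL-2 receptor. Because unstimulated cells were taken at 0 hr, incubation and cytokine cannot be told apart in any comparison with them, while IL-2-REH and IL-2 were matched in dose and time. The sources used here do not say whether the 3 Treg libraries of a group came from separate animals, so p-values measure only the spread between these libraries.

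Aminoacyl-tRNA synthetases join amino acids to their tRNAs, and 8 of the cytosolic enzymes sit in a multi-synthetase complex. When an amino acid runs short, uncharged tRNA activates the kinase GCN2, which phosphorylates the initiation factor eIF2 and favours translation of the transcription factor ATF4. ATF4, often with C/EBP partners, then raises transcription of synthetases, amino acid enzymes and transporters, and of effectors such as Trib3, Ddit3 and Chac1. Lymphocytes that enter growth also draw on serine and folate one-carbon metabolism, in which Phgdh, Psat1 and Psph make serine, Shmt1 and Shmt2 split it into glycine and a one-carbon unit, and Mthfd1, Mthfd1l and Mthfd2 pass that unit along the folate cycle.

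The binding element that ATF4 and C/EBP share is written TGATGNAAN, and the E-box CACGTG is bound by Myc and related factors. Both were searched on both strands from 250 bases before to 50 bases after the annotated start, in the RefSeq promoter table of GRCm38.p6, which held 32 of the 40 genes. It had no entry for Cars, Hars, Lars, Nars, Rars, Vars, Wars and Cth, whose motifs are therefore unknown here. TGATGNAAN was present in 10 of these 32 promoters (31.2%), against 1215 of 27025 promoters of all genes (4.50%). Targets of ATF4 were among the kinds of gene chosen for the list, so this share is not independent of that choice. The 10 genes were Aars, Gars, Iars, Tars, Yars, Asns, Chac1, Trib3, Atf3 and Pycr1. CACGTG was present in 5 of the 32 (15.6%), against 2187 of 27025 (8.09%), in Aars, Farsb, Iars, Tars and Aldh18a1, and no match of one motif overlapped a match of the other. The windows below are those of the 2 genes with the largest called fold changes in Tregs, Aldh18a1 and Trib3, followed by Aars, which was called at 4 hr, and by Asns, Chac1 and Tars for comparison. Capitals mark the motif as it reads 5′ to 3′ on the strand of the gene, so that an element on the other strand appears as its reverse complement.
Aldh18a1 E-box (chr19:40588497-40588542, minus strand, first base 59 bases before the start): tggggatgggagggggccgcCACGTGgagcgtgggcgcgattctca
Trib3 (chr2:152344029-152344057, minus strand, first base at transcribed base 14): ttagctcaggTTTACATCAgccgggcggg
Aars (chr8:111033709-111033757, plus strand, first base 113 bases before the start): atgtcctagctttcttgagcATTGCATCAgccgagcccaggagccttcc
Asns (chr6:7693210-7693252, minus strand, first base 23 bases before the start): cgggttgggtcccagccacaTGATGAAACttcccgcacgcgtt
Chac1 (chr2:119351028-119351076, plus strand, first base 194 bases before the start): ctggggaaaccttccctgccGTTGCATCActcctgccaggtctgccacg
Tars (chr15:11399659-11399694, minus strand, first base 16 bases before the start): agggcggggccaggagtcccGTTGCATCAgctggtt
A match is a run of letters and not evidence of binding. The Aars window lies inside the interval listed for the gene, which also holds an earlier start.

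Reads on genes ranged from 20201392 to 63903764 per library, and the 40 genes took 0.203% to 0.358% of them. The summed RPKM (reads per exon length, corrected for library size) of 5 Treg markers was 505 to 1061 in the Treg libraries and 12.6 to 28.3 in the CD8+ libraries, and that of Cd8a and Cd8b1 was 4.46 to 12.7 and 282 to 728. The library labelled unstimulated Treg replicate 1 stood apart from the other 2 of its group. Its log2(RPKM + 1) correlated across genes with theirs at 0.902 and 0.908, against 0.977 between those 2, and 1091 of 10473 expressed genes (10.4%) lay more than 1 log2 from both. Among the 40 genes this held for Eprs and Pycr1, which were higher, and for Vars and Mthfd1, which were lower. Trib3 lay near the level of the other 2 libraries (0.08 and 0.11 log2 from them). Aldh18a1 was lowest in replicate 1, by -0.68 and -0.36 log2 from replicates 2 and 3. Ddit4 was lowest there too, by -1.70 and -0.98 log2. Summed immediate early genes also moved with time, at 1315 to 2998 in unstimulated Tregs, 842 to 1815 at 90 min and 371 to 971 at 4 hr. In the CD8+ libraries that sum was 692 unstimulated and 68.9 to 160.985 after stimulation. The sum of 5 macrophage genes was 12.9, 54.2 and 45.9 in unstimulated Tregs, lowest in replicate 1, 9.79 to 32.7 at 90 min and 6.12 to 29.6 at 4 hr. Cd3e and Cd3d together were 264 to 403 unstimulated, 232 to 270 at 90 min, 166.7 to 205 at 4 hr of IL-2 and 226 to 254 at 4 hr of IL-2-REH. The part of these sums in the results was not tested, and in bulk RNA fewer cells of a type and less RNA per cell cannot be told apart. Counting did not state the use of strand, and 17 of the 40 genes overlap another annotated gene, among them Mars and Ddit3, which overlap each other on chromosome 10.

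**Figure D1:**
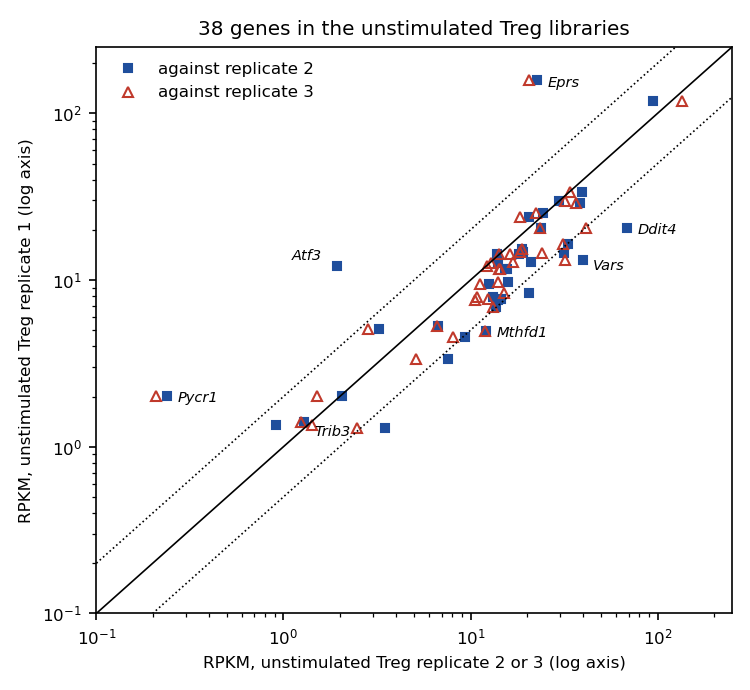
RPKM of the 38 genes with a mean Treg RPKM of at least 1 in unstimulated Treg replicate 1 (vertical, log axis) against replicate 2 (squares) and replicate 3 (triangles) (horizontal, log axis), where the solid line marks equal values and the dotted lines 1 log2 either way. Eprs (157.6 against 22.6 and 20.6) and Pycr1 lie far above the line, and Vars and Mthfd1 lie below it.

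Aldh18a1 was called at both times of IL-2 and at 90 min of IL-2-REH in Tregs. It encodes the enzyme that turns glutamate toward proline and ornithine (chr19:40550257-40588463, GRCm38). Its RPKM was 12.9, 21.1 and 16.8 in the unstimulated libraries, a mean of 16.9 ± 4.14 (SD, n = 3). With IL-2 it was 77.9, 68.5 and 74.5 at 90 min (73.7 ± 4.75) and 72.3, 77.4 and 59.7 at 4 hr (69.8 ± 9.11). Every IL-2 library lay above every unstimulated one, as held for 7.14% of all genes at 90 min and 5.98% at 4 hr. IL-2-REH gave intermediate levels, at 47.5, 33.3 and 39.5 at 90 min (40.1 ± 7.12) and 41.7, 33.9 and 25.2 at 4 hr (33.6 ± 8.26). The IL-2-REH libraries overlapped neither the unstimulated nor the IL-2 libraries at either time. With IL-2-REH 5.72% of all genes at 90 min and 7.68% at 4 hr were higher than unstimulated with no overlap. Lower than with IL-2 were 3.04% and 2.36%.

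Trib3, a pseudokinase induced by ATF4 that in turn restrains it (chr2:152337425-152344060), followed a similar order at a lower level. Its RPKM was 1.41, 1.29 and 1.24 in unstimulated Tregs (1.31 ± 0.0906, SD, n = 3). IL-2 gave 11.6, 4.59 and 3.90 at 90 min (6.68 ± 4.23) and 15, 10.9 and 11.8 at 4 hr (12.6 ± 2.14). IL-2-REH gave 6.17, 1.74 and 2.02 at 90 min (3.31 ± 2.48) and 7.01, 3.62 and 4.96 at 4 hr (5.20 ± 1.71). Replicate 1 was the highest library of each stimulated group, so the 90 min groups overlapped. At 4 hr every IL-2 library lay above every IL-2-REH library, as held for 2.36% of all genes.

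**Figure D2:**
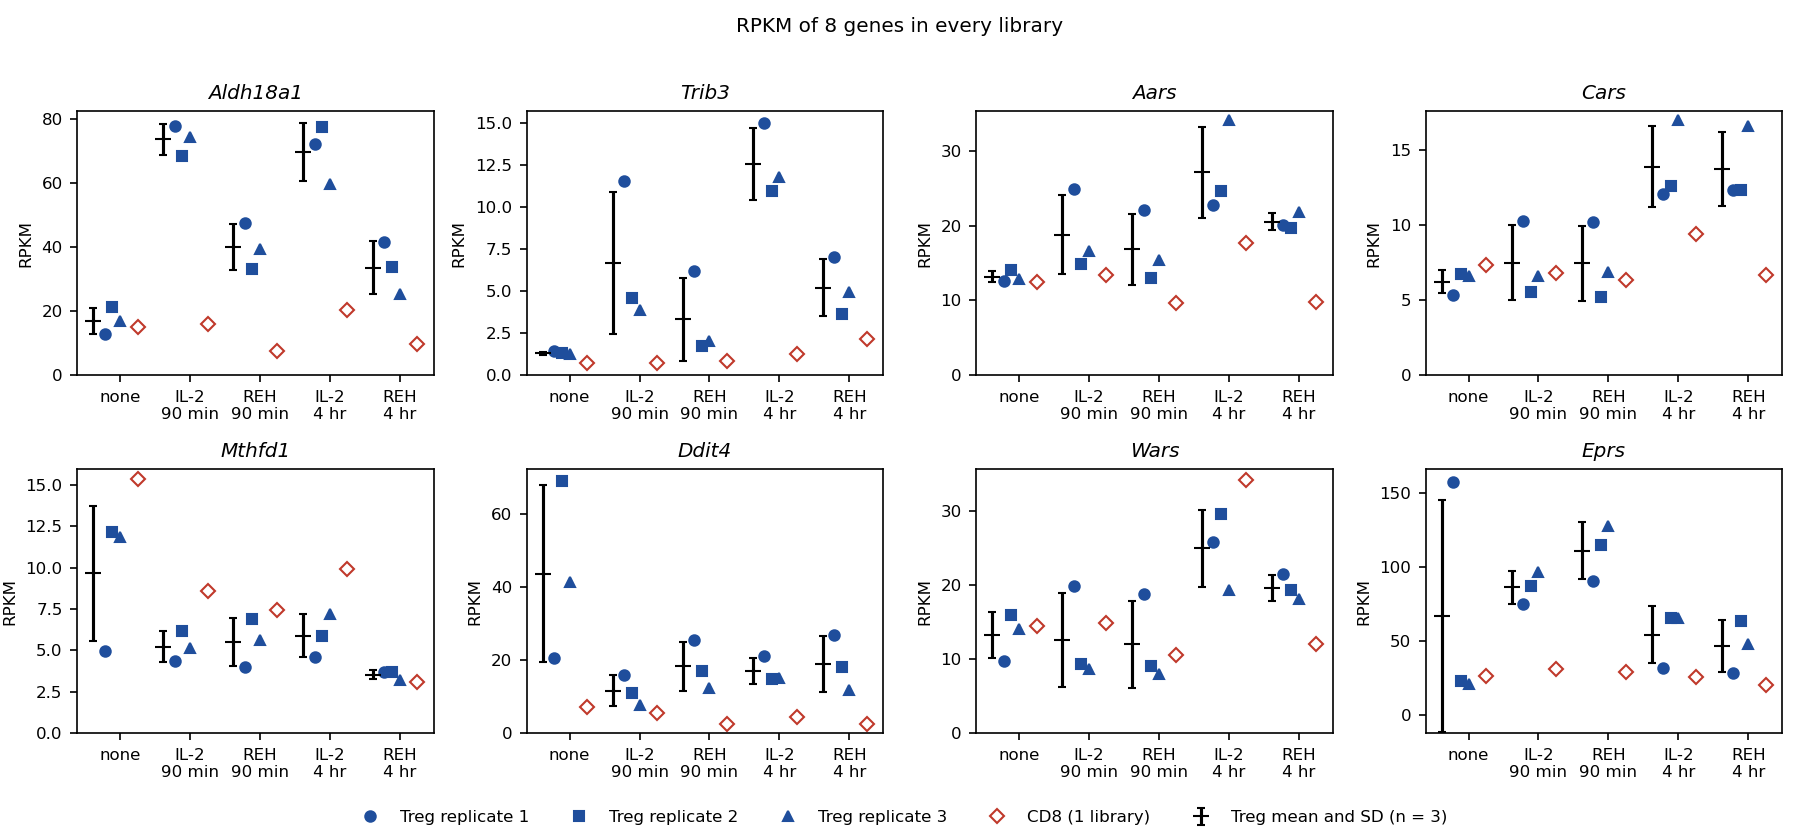
RPKM (vertical, linear axis) of Aldh18a1, Trib3, Aars, Cars, Mthfd1, Ddit4, Wars and Eprs in every library by stimulation (horizontal), with filled symbols for the 3 Treg replicates, open diamonds for the single CD8+ library and black bars for the Treg mean and SD. Aldh18a1 and Trib3 order as unstimulated, IL-2-REH, IL-2 in Tregs by their group means, and the wide bar of unstimulated Eprs comes from replicate 1 at 157.6 RPKM.

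At 90 min of IL-2, 3 of the 40 genes were called against unstimulated Tregs, Aldh18a1 and Trib3 higher and Ddit4 lower, none of them a synthetase or a serine or folate enzyme. The calls come from the edgeR quasi-likelihood test over the 15 Treg libraries with a Benjamini-Hochberg adjusted p under 0.05, and fold changes are fitted from counts. Over all 15009 genes tested, 0.78% were called higher and 0.0733% lower. The log2 fold change was 2.29 (SE 0.21, edgeR adjusted p = 7.8e-05) for Aldh18a1 and 2.41 (SE 0.45, edgeR adjusted p = 0.022) for Trib3. Ddit4, which encodes REDD1, an inhibitor of the growth kinase complex mTORC1 (chr10:59949675-59951770), fell by 1.76 (SE 0.37, edgeR adjusted p = 0.040). Its RPKM was 20.5, 69.0 and 41.5 in unstimulated Tregs and 16.0, 11 and 7.59 with IL-2 at 90 min, with no overlap (5.52% of all genes lower). Among the 20 synthetases 3 had an unadjusted p under 0.05, as did 13.8% of all genes, and none was called by edgeR or DESeq2, and their median log2 fold change of 0.00 compares with -0.06 over all genes. Atf4 itself, whose activity is set mainly by translation, had a log2 fold change of 0.14 (SE 0.24) and an RPKM of 91.5 to 137 across all Treg libraries. With the replicate number as a block the same 3 genes were called, against 1.37% of genes higher and 0.46% lower. Leaving out unstimulated replicate 2 or replicate 3 left Aldh18a1 alone, where 0.298% and 0.284% of all genes were called. Leaving out unstimulated replicate 1 gave 6 calls, the 3 genes with Eprs higher and Dars and Vars lower, where 12.9% of 15494 genes were called.

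At 90 min of IL-2-REH, Aldh18a1 was the 1 gene called higher, and none was called lower. Its log2 fold change was 1.40 (SE 0.20, edgeR adjusted p = 0.025), and over all genes 0.0933% were called higher and 0% lower. Trib3 had a log2 fold change of 1.39 (SE 0.44) at an edgeR adjusted p of 0.39, and Ddit4 one of -1.09 (SE 0.36), also at an edgeR adjusted p of 0.39. Ddit4 RPKM was 25.5, 17.1 and 12.3, of which replicate 1 lay within the unstimulated range. The count for genes lower was 0 with edgeR and with DESeq2, and 8 of the 40 genes in either direction had an unadjusted p under 0.05, where 11.4% of all genes did. With the replicate block Aldh18a1 again stood alone, against 0.193% of genes higher and 0.02% lower. The call was lost without unstimulated replicate 2 (edgeR adjusted p = 0.11) or replicate 3 (edgeR adjusted p = 0.24), where 0% of all genes were called in either case. Without unstimulated replicate 1 there were 7 calls, against 12.1% of genes, with Eprs and Sesn2 higher and Dars, Ddit4, Farsb and Vars lower beside Aldh18a1. These 4 comparisons with unstimulated Tregs share the same 3 control libraries, so they are not independent.

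After 4 hr of IL-2 synthetases were among the genes called. Aars, Cars and Mars were higher together with Aldh18a1 and Trib3, 5 of the 40 genes, against 1.17% of all genes higher, and 0 of the 40 were lower, against 1.1%. Aars, the alanyl-tRNA synthetase (chr8:111027778-111055569, overlapping Ddx19b), had an RPKM of 12.6, 14.0 and 12.9 unstimulated and 22.8, 24.7 and 34.1 with IL-2. The log2 fold change of Aars was 1.13 (SE 0.22, edgeR adjusted p = 0.020). At 90 min of IL-2 Aars was already higher without a call (0.63, SE 0.22, edgeR adjusted p = 0.23). Its groups did not overlap there either (7.14% of all genes higher). From 90 min to 4 hr of IL-2 its log2 difference was 0.50 (edgeR adjusted p = 0.27), so a later rise was not called. Cars, the cysteinyl enzyme (chr7:143557230-143600090, overlapping Gm15580 and Mir7064), went from 5.33, 6.71 and 6.62 RPKM to 12.1, 12.5 and 17.0. Its log2 fold change was 1.25 (SE 0.26, edgeR adjusted p = 0.024). Mars, the methionyl enzyme of the complex (chr10:127296221-127311786), went from 7.90, 13.2 and 10.9 RPKM to 13.8, 17.2 and 16.4, a log2 fold change of 0.66 (SE 0.15, edgeR adjusted p = 0.035). None of the 3 genes overlapped between the groups, where 5.98% of all genes were higher with no overlap. Trib3 reached a log2 fold change of 3.33 (SE 0.47, edgeR adjusted p = 0.0028) and Aldh18a1 2.13 (SE 0.20, edgeR adjusted p = 0.00015).

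The synthetases did not move as 1 block at 4 hr of IL-2. Of the 20, 14 had a positive fold change with a median of 0.23 on the log2 scale, against -0.00 over all genes, and their fold changes ran from -0.83 for Farsb to 1.25 for Cars. In the 8 members of the complex the median was -0.02, with 4 positive. Wars, the tryptophanyl enzyme (chr12:108860030-108894175, overlapping Wdr25), had 9.78, 15.9 and 14.0 RPKM unstimulated and 25.8, 29.6 and 19.3 with IL-2, with no overlap (5.98% of all genes higher). Its log2 fold change of 0.99 (SE 0.27) missed the threshold (edgeR adjusted p = 0.078) and passed it with the replicate block (0.96, edgeR adjusted p = 0.028). Ddit4, at 21.1, 14.7 and 15 RPKM, likewise had a log2 fold change of -1.23 (edgeR adjusted p = 0.10) that passed with the block (-1.27, edgeR adjusted p = 0.039). The block thus gave 7 calls, against 2.85% of genes higher and 4.06% lower. DESeq2 gave 8, these 7 and Farsb, a subunit of the phenylalanyl enzyme, which was lower (-0.82, DESeq2 adjusted p = 0.035, edgeR adjusted p = 0.11), where it called 6.64% of genes. Farsb RPKM was 6.86, 13.6 and 13.2 unstimulated and 6.78, 7.35 and 3.85 with IL-2.

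The 4 hr IL-2 calls of Aars, Cars and Mars depended on single libraries. IL-2 4 hr replicate 3, the library with the fewest reads, had 1379 and 1641 of 10473 genes more than 1 log2 from replicates 1 and 2. Without it 2 genes were called, Aldh18a1 and Trib3, where 1.01% of all genes were called, against 2.27% with all libraries. The same 2 were called without unstimulated replicate 2 or replicate 3, where 0.887% and 0.465% of all genes were, so calls fell over all genes as well. Without IL-2 4 hr replicate 2, Mars was lost (edgeR adjusted p = 0.090) and 4 genes remained, where 0.936% of all genes were called. Without unstimulated replicate 1 there were 10 calls, the 5 genes with Eprs higher and Dars, Ddit4, Farsb and Vars lower, where 8.87% of genes were called.

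At 4 hr of IL-2-REH none of the 40 genes passed the edgeR test, although 18 had an unadjusted p under 0.05 and DESeq2 called 6. Of all genes 13.3% had such a p and DESeq2 called 3.76%. With edgeR 0.16% of all genes were called higher and 0.153% lower. The replicate block called 7, Aldh18a1, Cars, Ddit3 and Trib3 higher and Mthfd1, Psat1 and Vars lower, against 1.01% of genes higher and 2.02% lower. In that fit the log2 fold change was 1.93 for Trib3 (edgeR adjusted p = 0.0014), 1.14 for Cars (edgeR adjusted p = 0.0082) and 1.0 for Aldh18a1 (edgeR adjusted p = 0.021). Without the block the edgeR adjusted p was 0.081 for Trib3, 0.077 for Cars and 0.052 for Aldh18a1. Cars RPKM was 12.3, 12.3 and 16.6, close to the IL-2 libraries at the same time. Ddit3, which encodes the stress factor CHOP (chr10:127290793-127296291), had 14.4, 13.9 and 16.2 RPKM unstimulated and 27.1, 19.3 and 28.2 with IL-2-REH. The Ddit3 log2 fold change was 0.74 with the block (edgeR adjusted p = 0.041) and 0.75 without it (edgeR adjusted p = 0.17).

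The genes lower with IL-2-REH at 4 hr in the blocked fit were a folate enzyme, a serine enzyme and a synthetase. Mthfd1, the cytosolic enzyme with 3 folate activities (chr12:76254406-76319820), had 4.95, 12.2 and 11.9 RPKM unstimulated and 3.72, 3.68 and 3.22 with IL-2-REH. Its log2 fold change was -1.32 with the block (edgeR adjusted p = 0.013) and -1.41 without it (edgeR adjusted p = 0.090). Psat1, the second enzyme of serine synthesis (chr19:15905123-15925059), went from 7.58, 13.9 and 10.5 RPKM to 6.55, 6.74 and 4.73, a log2 fold change of -0.79 with the block (edgeR adjusted p = 0.035) and -0.81 without it (edgeR adjusted p = 0.12). Vars, the valyl enzyme (chr17:35000907-35016329), went from 13.2, 39.8 and 31.9 RPKM to 9.92, 13.9 and 11.6. For Vars the log2 fold change was -1.14 with the block (edgeR adjusted p = 0.018) and -1.22 without it (edgeR adjusted p = 0.15). Psat1 and Mthfd1 did not overlap between the groups (6.05% of all genes lower), and Vars overlapped through unstimulated replicate 1. All 3 folate enzymes had negative fold changes at 4 hr, with a median of -0.39 for IL-2 and of -0.61 for IL-2-REH, none of them called in the unblocked fit. Without unstimulated replicate 1 and without the block 10 genes were called, against 6.93% of genes. They were Aldh18a1, Cars and Trib3 higher and Dars, Ddit4, Farsb, Mthfd1, Mthfd1l, Psat1 and Vars lower. Without unstimulated replicate 2 or replicate 3 the count stayed at 0, where 0.11% and 0.0129% of all genes were called.

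**Figure D3:**
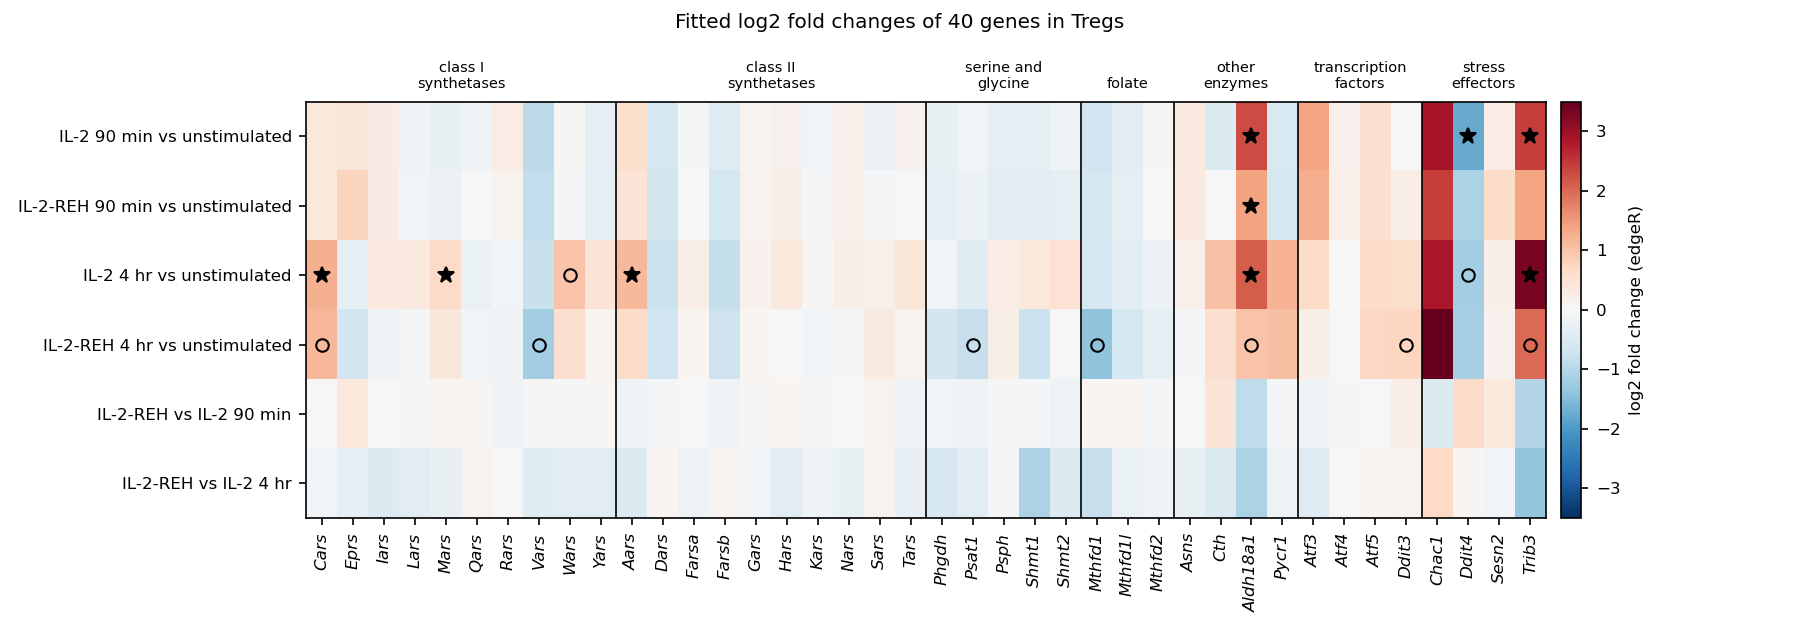
Fitted log2 fold changes (color scale) of the 40 genes (columns, grouped by role) in 6 Treg comparisons (lines of the map), with a star where the edgeR adjusted p was under 0.05 and a circle where it was so only with the replicate block. Stars fall on Aldh18a1 in 3 comparisons and on Trib3 in 2, Chac1 is deeply colored at levels below 0.5 RPKM without a call, and the 2 lines for IL-2-REH against IL-2 hold no star.

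Eprs, the glutamyl-prolyl enzyme of the complex (chr1:185361417-185428360), depended on 1 library. Its RPKM was 157.6, 22.6 and 20.6 in unstimulated Tregs. It was 74.5, 87.2 and 96.2 with IL-2 and 90.2, 115 and 128 with IL-2-REH at 90 min. At 4 hr it was 31.7, 65.2 and 65.3 with IL-2 and 28.0, 63.2 and 47.8 with IL-2-REH. All stimulated libraries lay between replicate 1 and the other 2 unstimulated libraries. The log2 fold changes against unstimulated cells were 0.41 and 0.78 at 90 min and -0.35 and -0.65 at 4 hr, for IL-2 and IL-2-REH in that order, with no call. Without unstimulated replicate 1 they were 2.24, 2.61, 1.47 and 1.17, of which the first 3 were called and the last was not (edgeR adjusted p = 0.089).

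Several stress and amino acid genes had no edgeR call with all libraries, with or without the block. Chac1, which degrades glutathione, and Cth, which makes cysteine, stayed at or below 0.467 and 0.294 RPKM in every library, so their fold changes rest on few reads. Atf3, a stress factor that also responds early to stimulation, had 12.1, 1.94 and 12.2 RPKM unstimulated and 19.5, 18.7 and 26.4 with IL-2 at 90 min. The groups did not overlap (7.14% of all genes higher), and the log2 fold change was 1.39 (SE 0.55, edgeR adjusted p = 0.29). Sesn2, a sensor that restrains mTORC1, ranged from 2.83 to 6.09 RPKM over all Treg libraries. Asns, the asparagine synthetase, stayed between 0.628 and 2.25 RPKM and Pycr1, the last step to proline, between 0.0912 and 4.85, highest in replicate 1 of every group.

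The 10 genes whose promoters hold TGATGNAAN were described beside the 22 whose promoters do not. The 8 genes without a promoter entry are in neither group. Among them are Cars, called higher at 4 hr of IL-2, and Wars, called higher there only with the block. Vars, called lower at 4 hr of IL-2-REH with the block, is also among them. At 4 hr of IL-2 their median log2 fold change in Tregs was 0.58 and all 10 were positive, against 0.02 and 11 of 22 positive. At 4 hr of IL-2-REH the medians were 0.19 (8 of 10 positive) and -0.10 (10 of 22 positive). At 90 min of IL-2 they were 0.31 (8 of 10 positive) and -0.13 (6 of 22 positive). At 90 min of IL-2-REH they were 0.31 (7 of 10 positive) and -0.13 (6 of 22 positive). The genes with the element thus had the higher median in each of these comparisons, which share their control libraries. Trib3 and Aars, printed above, are among them, whereas Aldh18a1 has the E-box alone and Asns has the element with a log2 fold change of 0.18 (SE 0.48) at 4 hr of IL-2. The 5 genes with the E-box also had the higher median in the same comparisons, against the 27 without it. In the order above the medians were 0.42 against 0.18, 0.13 against 0.02, 0.28 against -0.10 and 0.28 against -0.07. Aars, Iars and Tars hold both motifs, so the 2 groups of genes are not separate. Chac1, whose fold changes rest on few reads, is among the 10. No test was made of these differences.

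Setting the cytokines side by side at equal dose and time asks how the partial agonist differs from the full one. At 90 min none of the 40 genes was called by edgeR, which called 0.0133% of all genes with and without the replicate block. An unadjusted p under 0.05 was found for 2 (0.993% of all genes), and DESeq2 called 1, Aldh18a1 (0.0999% of all genes). At 4 hr none was called by edgeR, which called 0.0267% of genes without the block and 0.0666% with it. An unadjusted p under 0.05 was found for 5 (3.72% of all genes), and DESeq2 again called Aldh18a1 alone (0.386% of all genes). The log2 difference of Aldh18a1 was -0.89 (95% interval -1.31 to -0.47, edgeR adjusted p = 0.83) at 90 min and -1.12 (95% interval -1.55 to -0.69, edgeR adjusted p = 0.085) at 4 hr. With the block the edgeR adjusted p at 4 hr was 0.069, and the DESeq2 adjusted p was 2.7e-05. That of Trib3 was -1.02 (95% interval -1.94 to -0.10) at 90 min and -1.34 (95% interval -2.27 to -0.41, edgeR adjusted p = 0.98) at 4 hr, where the block gave an edgeR adjusted p of 0.061. Both genes were lower with IL-2-REH in 3 of 3 same-numbered pairs at 4 hr.

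Some genes showed no separation between the cytokines within the precision of 3 libraries. Cars had a log2 difference of -0.09 at 4 hr (95% interval -0.63 to 0.45) and Atf4 of 0.02 (95% interval -0.49 to 0.53). Both intervals span 0, as they did with the replicate block (-0.50 to 0.33 for Cars and -0.41 to 0.44 for Atf4). Differences within them were not detectable. At 90 min the median difference of the 40 genes was -0.00, with 19 positive, against 0.02 over all genes.

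At 4 hr the fitted fold changes of the list leaned toward lower levels with IL-2-REH. The median was -0.26 with 9 of 40 positive, against 0.01 over all genes, and it was -0.26 for the 20 synthetases (4 positive) and -0.48 for the 5 serine and glycine genes (0 positive). The lean was not seen in every same-numbered pair. Over the 38 genes with a mean Treg RPKM of at least 1, the median log2 ratio of RPKM + 1 was -0.01 in pair 1 (22 negative), -0.19 in pair 2 (31 negative) and -0.30 in pair 3 (28 negative). The RPKM of 9 genes did not overlap between the cytokines, all lower with IL-2-REH, where 2.36% of genes were lower and 5.43% higher with no overlap. They were Aars, Lars, Nars, Tars, Phgdh, Shmt2, Mthfd1, Trib3 and Aldh18a1. With TMM-scaled CPM 10 were lower and Qars was higher, against 3.67% and 4.08% of genes, and Aars, Nars and Tars gave way to Iars, Mars, Wars and Psat1. At 90 min Aldh18a1 alone was lower and Sesn2 alone higher with no overlap, against 3.04% and 2.42% of genes. Phgdh, the first enzyme of serine synthesis, had 16.3, 18.1 and 26.4 RPKM with IL-2 and 15.3, 13.6 and 15 with IL-2-REH at 4 hr. Mthfd1 had 4.57, 5.89 and 7.21 against 3.72, 3.68 and 3.22, a log2 difference of -0.82 (95% interval -1.52 to -0.12). Whether the difference between cytokines changed from 90 min to 4 hr was tested as an interaction, for which edgeR called 0 of the 40 genes with and without the block, against 0% of all genes. No member had an unadjusted p under 0.05 without the block, 2 had with it, and DESeq2 called 0.

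From 90 min to 4 hr within 1 cytokine, edgeR called 0 of the 40 genes and 0% of all genes. With IL-2, 10 of the 40 had an unadjusted p under 0.05 (17.0% of all genes), DESeq2 called 3 (Cars, Mars and Wars, against 2.55% of genes), and the replicate block called Mars, against 0.386% of genes. Mars RPKM rose from 9.49, 8.12 and 6.57 at 90 min to 13.8, 17.2 and 16.4 at 4 hr in that blocked fit, a log2 difference of 0.91 (edgeR adjusted p = 0.028), against 0.92 without the block (edgeR adjusted p = 0.060). With IL-2-REH, 8 of the 40 had an unadjusted p under 0.05 (14.6% of all genes), DESeq2 called 1 (Mars, against 1.67% of genes) and the block called 0 of the 40 and 0.04% of genes. Scaling by library totals without TMM moved the median of all genes from 0.03 to 0.22 with IL-2 and from 0.04 to 0.27 with IL-2-REH over this interval, and from -0.06 to -0.21 and from -0.05 to -0.21 in the 90 min comparisons with unstimulated cells, so that levels over time are relative to those shifts.

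In CD8+ T cells each condition is 1 library, so no difference has a replicate check and no test was made. Ratios are log2 of RPKM + 1, which understates the change of low genes, for the 36 genes with a mean CD8+ RPKM of at least 1 (Asns, Chac1, Cth and Pycr1 fell below), and a ratio counts as past the threshold beyond 1 either way. Aldh18a1 was 15 RPKM unstimulated and 16.0 and 20.4 with IL-2 at 90 min and 4 hr, and 7.45 and 9.62 with IL-2-REH. The IL-2-REH libraries were the lowest 2 of the 5. Trib3 was 0.698 RPKM unstimulated, 0.751 and 1.27 with IL-2 and 0.861 and 2.13 with IL-2-REH, below every Treg library of the same condition.

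After 90 min of IL-2, the highest CD8+ ratios were those of Sesn2 (0.60, from 1.26 to 2.42 RPKM), Iars (0.32) and Atf5 (0.26). The lowest were Phgdh (-1.26, from 29.5 to 11.8 RPKM), Vars (-0.98, from 34.6 to 17.1) and Psph (-0.88, from 7.17 to 3.44). Phgdh was the 1 gene past the threshold, with 0 higher, where 2.81% of 10021 expressed genes were higher and 4.43% lower. After 90 min of IL-2-REH, Sesn2 (0.43), Atf5 (0.37) and Ddit3 (0.20) were highest, and Phgdh (-1.42, 10.4 RPKM), Ddit4 (-1.18, from 6.99 to 2.54) and Vars (-1.0) lowest. Phgdh and Ddit4 were past the threshold, against 2.46% of genes higher and 6.11% lower.

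At 4 hr the genes past the threshold differed between the 2 cytokines in CD8+ T cells. With IL-2, Wars was the 1 gene past the threshold, at 14.5 RPKM unstimulated and 34.2 after 4 hr (1.19), against 1.31% of genes higher and 3.4% lower. Aars (0.47) and Aldh18a1 (0.42) followed, and Vars (-0.61), Mthfd1l (-0.59) and Mthfd1 (-0.58) were lowest. With IL-2-REH at 4 hr 33 of 36 ratios lay below 0, all 20 synthetases among them, where 52.2% of genes did. With IL-2 at 4 hr 21 of 36 did, where 58.7% of genes did. Most also lay below 0 at 90 min, 30 of 36 with IL-2-REH (59.5% of genes) and 26 with IL-2 (53.0%). Past the threshold at 4 hr of IL-2-REH 7 genes were lower and 0 higher, against 4.33% and 1.78% of genes. They were Mthfd1 (-2.01, from 15.4 to 3.06 RPKM), Phgdh (-1.57, from 29.5 to 9.28), Shmt2 (-1.32, from 35.5 to 13.6), Ddit4, Shmt1, Mthfd2 and Psat1, so 6 of the 8 serine and folate genes. Trib3 (0.88), Atf5 (0.29) and Sesn2 (0.19) were the 3 above 0.

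IL-2-REH against IL-2 in CD8+ T cells gave 1 gene past the threshold at 90 min, Aldh18a1 (-1.0), against 0.0599% of genes higher and 0.808% lower. At 4 hr 7 genes were lower and 0 higher, against 1.68% and 0.549% of genes. They were Wars (-1.44, from 34.2 to 12 RPKM), Mthfd1 (-1.43, from 9.91 to 3.06), Shmt1 (-1.30), Mthfd2 (-1.17), Psat1 (-1.05), Phgdh (-1.01, from 19.7 to 9.28) and Aldh18a1 (-1.01, from 20.4 to 9.62). The median ratio of the 36 genes was -0.44 with 32 below 0, against 0.08 over all genes, of which 38.2% lay below 0. In the Treg pairs the same ratio was -0.26, -0.60 and -0.09 for Wars and -0.24, -0.56 and -0.96 for Mthfd1, all on the same side as in CD8+ T cells and smaller. These 2 genes had the lowest CD8+ ratios, a choice that favours smaller ratios in Tregs. Smaller ratios cannot be read for all 7, since Aldh18a1 had a log2 difference of -1.12 in Tregs, fitted from counts. Of the 7 genes, 6 had all 3 Treg pairs below 0, and Mthfd2 was at 0.11, -0.17 and -0.14. The share of all genes with 3 such pairs is not given here. Trib3 went the other way, at 0.46 in CD8+ T cells and -1.0, -1.37 and -1.10 in the Treg pairs. The difference between cell types was not tested, since CD8+ T cells have 1 library per condition.

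**Figure D4:**
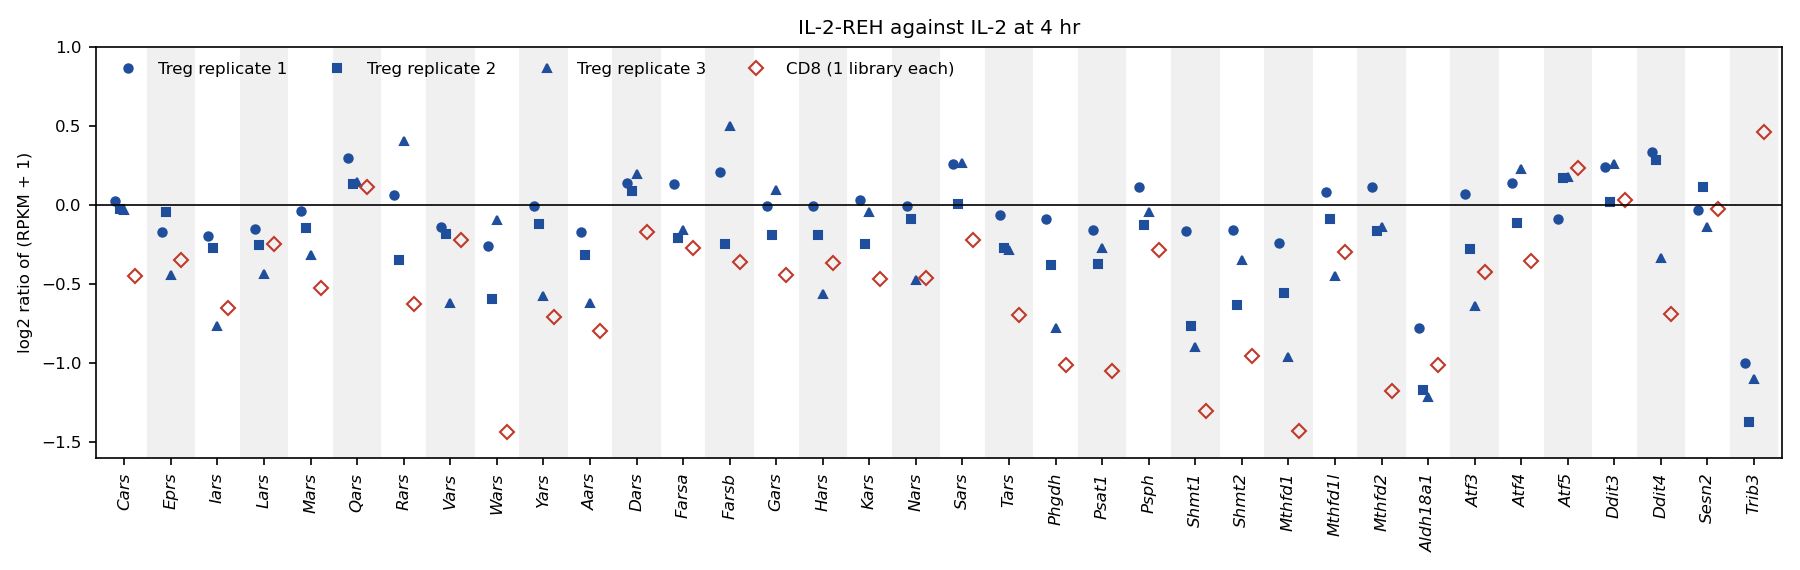
Log2 ratio of RPKM + 1, IL-2-REH over IL-2, after 4 hr (vertical) for the 36 genes with a mean CD8+ RPKM of at least 1 (horizontal), with filled symbols for the 3 same-numbered Treg pairs and open diamonds for the CD8+ libraries. In CD8+ T cells 32 of 36 diamonds lie below 0, with Wars and Mthfd1 lowest, while Trib3 lies at 0.46 in CD8+ T cells and between -1.0 and -1.37 in the Treg pairs.

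The CD8+ level was set beside the range of the 3 Treg libraries in each condition, as a description. Unstimulated, 16 of the 40 genes were above the Treg range and 11 below it, where 21.3% of 9669 genes were above and 32.8% below. With IL-2 at 4 hr 16 were above and 14 below, against 23.6% and 30.7% of genes. With IL-2-REH at 4 hr 4 were above (Dars, Farsb, Vars and Mthfd1l) and 26 below, where 24.4% of genes were above and 38.2% below. Eprs, Trib3 and Ddit4 were below the Treg range in CD8+ T cells at both times and with both cytokines. Atf4 was 48.3 to 76.5 RPKM in CD8+ T cells, below every Treg library.

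Other genes of the pathway, 64 in 6 lists, showed few calls. They were 17 mitochondrial synthetases, 3 scaffold proteins of the complex, 14 eIF2 kinases and regulators, 10 amino acid transporters, 10 further ATF4 or C/EBP genes and 10 further folate genes. The edgeR test called Tars2, the mitochondrial threonyl enzyme, higher at 4 hr of IL-2, where 1.17% of all genes were called higher. It called 0 of the 64 in the other 8 Treg comparisons, where 0% to 0.853% of all genes were called. In these 8, 0 to 11 of the 64 had an unadjusted p under 0.05, where 0.313% to 17% of all genes did. Tars2 RPKM was 11.5, 27.0 and 20 unstimulated and 28.6, 42.4 and 53.1 with IL-2, with no overlap (5.98% of all genes higher). Its log2 fold change was 1.21 (SE 0.27, edgeR adjusted p = 0.036). With the replicate block Cebpg, a partner of ATF4, was called higher at 90 min of IL-2 (0.83, edgeR adjusted p = 0.035), where 1.37% of all genes were. Gpt2, an alanine aminotransferase at 0.156 to 0.748 RPKM in these libraries, was called higher at 4 hr of IL-2 (1.15, edgeR adjusted p = 0.029, and 0.16 without the block). In the same fit Ppp1r15a, the phosphatase subunit that reverses eIF2 phosphorylation, was called lower at 4 hr, by -1.44 with IL-2 (edgeR adjusted p = 0.0056) and -1.34 with IL-2-REH (edgeR adjusted p = 0.015). At 4 hr the blocked fit called 2.85% of all genes higher and 4.06% lower with IL-2, and 2.02% lower with IL-2-REH.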

How the data were processed

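The authors aligned 50 bp single-end reads to mm10 with TopHat2 2.1.1 and Bowtie2 2.2.6 and, with SAMtools 0.1.8 and bedtools 2.25.0, deposited counts of uniquely mapped reads over the exons of each transcript. They also deposited RPKM beside these counts, normalized to exon length and mapped reads. Tools and versions are those of the submitters' processing notes and the study's methods, and the edgeR version is not given in the sources used here.

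Of 31682 transcripts, the 1 with most reads over the 20 libraries stood for each symbol. Counts of the 15 Treg libraries were filtered (filterByExpr), scaled by TMM and fitted with edgeR 4.0.16 (glmQLFit, glmQLFTest, R 4.3.3), 1 mean per group, and p-values were adjusted over all 15009 genes by Benjamini-Hochberg, with a threshold of 0.05. DESeq2 1.42.0, other scalings, filters and left-out libraries were alternatives, and the fits were tested on simulated data. CD8+ libraries were compared by log2(RPKM + 1) with no test. Python 3.11.15, numpy 2.4.6, pandas 2.3.3 and matplotlib 3.10.9 made the tables and figures.

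Same-numbered Treg libraries deviated together from their group means (correlations 0.121 to 0.839, mean 0.54), so the replicate numbers were taken to pair the samples. Different numbers had a mean of -0.26, which follows largely from centring each group on its own mean and is not a separate contrast. The pairing rests on this check and not on a statement in the labels. A fit with the replicate block is given beside a result whose call it changes.

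The 40 genes and the lists were chosen with earlier results of these data known. Full values are given for genes called in any Treg comparison, with or without the block, and for the 3 highest and 3 lowest CD8+ ratios against unstimulated cells. Genes described beyond that rule (Eprs, Phgdh, Shmt2, Atf3, Atf4, Farsb, Tars2 and other genes of the lists) were chosen after their values were seen. Intervals are 95% intervals of the edgeR fit without the block unless the block is named.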

Additional observations from a re-analysis of the deposited data

Results flagged for a closer look

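Aldh18a1 with IL-2-REH moved in opposite directions in the 2 cell types. At 90 min against unstimulated cells its log2 ratio of RPKM + 1 was -0.918 in CD8+ T cells, where it was 1.81, 0.63 and 1.19 in the 3 same-numbered Treg pairs. At 4 hr it was -0.590 in CD8+ T cells and 1.62, 0.66 and 0.56 in the Treg pairs. The difference was not tested, because CD8+ T cells have 1 library per condition.

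Ddit4 also went opposite ways at 90 min when IL-2-REH was set against IL-2, at -0.872 in CD8+ T cells and 0.64, 0.60 and 0.63 in the 3 Treg pairs. This difference was not tested either, and the CD8+ values behind it are 2.54 and 5.47 RPKM.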

How the results depend on the processing

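All counts below are of the 40 genes called by edgeR unless another tool is named. At 90 min of IL-2 (3 calls) the count was 1 with library totals without TMM (0.673% of all genes) and 1 with only the groups compared (0.226%). It was 12 with the replicate block and without unstimulated replicate 1, where 26.9% of all genes were called. With 1 replicate number or 1 library left out it was 0 to 8 (0% to 17.3% of all genes). At 90 min of IL-2-REH (1 call) it was 0 (0.0133% of all genes), 0 (0%) and 12 (25.4%) under the same 3 alternatives and 0 to 7 with libraries left out (0% to 15.7%). At 4 hr of IL-2 (5 calls) it was 8 with DESeq2 (6.64%), 2 with only the groups compared (0.108%), 16 with the block and without unstimulated replicate 1 (21.0%), and 0 to 11 with libraries left out (0.0197% to 13.4%). At 4 hr of IL-2-REH (0 calls) it was 7 with the replicate block, 6 with DESeq2, 15 with the block and without unstimulated replicate 1 (16.7%), and 0 to 11 with libraries left out (0% to 10.7%). IL-2-REH against IL-2 (0 calls) gave 1 with DESeq2 at each time, and genes higher with no overlap at 4 hr went from 0 to 1 with TMM-scaled CPM. IL-2 at 4 hr against 90 min (0 calls) gave 1 with the replicate block, 3 with DESeq2 and 0 to 3 with a replicate left out (0% to 4.32%). IL-2-REH at 4 hr against 90 min gave 1 with DESeq2 and 0 to 3 with a replicate left out (0% to 3.96%).

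Eprs reversed. At 90 min of IL-2 its log2 fold change was 2.399 without replicate 1, -0.05 without replicate 2, -0.22 without replicate 3, and -0.03 and -0.02 without unstimulated replicate 2 or 3. At 4 hr, without replicate 1, without unstimulated replicate 1, and with the block as well, it was 1.73, 1.47 and 1.67 with IL-2 and 1.42, 1.17 and 1.38 with IL-2-REH, and the lowest values were -1.01 without replicate 3 with IL-2 and -1.31 without replicate 2 with IL-2-REH. Its dependence on unstimulated replicate 1 follows from the level of that library, and the other causes were not tested. Over 27 gene results and 364 alternatives, 259 kept direction and side of the threshold, 44 lost the call, 51 gained one and 10 reversed, all of Eprs. The replicate block changed no call of the 40 genes beyond those given in the report.

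In CD8+ T cells, with a pseudocount of 0.1 the genes past the threshold were 3 at 90 min of IL-2 (1 with the pseudocount of 1), 6 at 90 min of IL-2-REH (2), 2 for IL-2-REH against IL-2 at 90 min (1) and 3 for IL-2-REH at 4 hr against 90 min (1). A threshold of 2 left 1 gene at 4 hr of IL-2-REH and 0 in the other 7 comparisons. Centring each library on its median left 0 for IL-2-REH against IL-2 at 90 min. The shares of all expressed genes past the threshold under these settings are not given here. The changed counts therefore describe the settings and cannot be read as particular to the listed genes. The block together with leaving out unstimulated replicate 1, and the TMM-scaled CPM, were chosen after seeing the data. Without all libraries numbered 2, the call of Aldh18a1 was lost at 90 min of IL-2 (edgeR adjusted p = 0.075) and at 4 hr (edgeR adjusted p = 0.068). Of all genes 0.00658% and 0.0197% were called in these fits. Depth limits Chac1 and Cth, which stayed below 0.5 RPKM.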

Other observations

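Gcsh, the carrier protein of the glycine cleavage system, was the 1 gene of the 64 other pathway genes called between the cytokines, and only in the blocked fit at 4 hr (0.0666% of all genes). Its RPKM was 8.26, 7.27 and 6.16 in Tregs given IL-2, whereas IL-2-REH gave 3.29, 2.61 and 3.12, with no overlap (2.36% of all genes lower). The log2 difference was -1.33 with the replicate block (edgeR adjusted p = 0.041) and -1.33 without it (edgeR adjusted p = 0.055). In the 4 hr CD8+ libraries it was 5.87 RPKM for IL-2 and 2.66 for IL-2-REH. The 10 amino acid transporters had 0 positive fold changes from 90 min to 4 hr of IL-2 in Tregs, with a median of -0.41 against 0.03 over all genes. For this interval edgeR called 0 of the 10 and 0% of all genes, and 2 of the 10 had an unadjusted p under 0.05, where 17% of all genes did. With IL-2-REH 1 of the 10 was positive, with a median of -0.53. The summed RPKM of 3 erythroid marker genes was 76.1 to 131 in the replicate 3 Treg libraries, in every condition.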
